A study of Mus musculus with 135 samples.

Results

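Stra8, Meioc, Ythdc2, Zglp1, Msx1 and Msx2, 6 genes that act at the entry of female germ cells into meiosis, were examined in mouse primordial germ cells (PGC) at E13.5, the embryonic age in days, and in ovulated oocytes. They were taken by symbol and were 6 of the 19004 genes in the PGC table and 6 of the 53715 genes in the oocyte count tables. All mice were of the C57BL6/129 strain. The PGC data comprised 1 wild-type (WT) library and 1 library labelled Tet2 knockout (Tet2KO), each purified from 4 to 6 embryos. The oocyte data comprised 94 single oocytes from young mice, 2 to 4 months old, and old mice, 10 to 12 months old. They were 38 young WT, 15 young Tet1 knockout (Tet1KO), 16 young Tet2KO, 12 old WT, 6 old Tet1KO and 7 old Tet2KO oocytes. The labels named the genotypes without describing the alleles or the sex of the embryos. Oocytes of a group shared a name stem in blocks, termed sets here (13 in all), and counts were summed per set, because oocytes of a set are not independent samples. The labels did not say whether a set was 1 female, so p-values measure the spread between sets. Set names fell into a series beginning with T or S and a numbered series, and this naming series was a term of the model wherever it could be fitted.

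Meiotic entry is the step at which a germ cell leaves mitotic division and starts meiotic prophase, and in the female it takes place in the fetal ovary around the embryonic day sampled here. Retinoic acid and bone morphogenetic protein (BMP) signals act upstream. ZGLP1 and the homeodomain factors MSX1 and MSX2 act as transcriptional regulators downstream of BMP signalling, and STRA8, with its partner MEIOSIN, activates meiotic genes. MEIOC and the RNA helicase YTHDC2 work after transcription, in a complex with RBM46 that destabilises transcripts of the mitotic programme. The TET proteins oxidise 5-methylcytosine, and several germ-line genes carry CpG-rich promoters that lose methylation in PGC.

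In mm10, as the count tables give it, Stra8 spans chr6:34920163-34939344 (plus strand) and Meioc chr11:102663716-102682237 (plus strand). Zglp1 spans chr9:21062393-21067093, Msx1 chr5:37820485-37824583 and Msx2 chr13:53466884-53473074, all on the minus strand.

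The library labelled Tet2KO held less of all 6 transcripts than the WT library, but by amounts that ranged from a factor of 1.08 to a factor of 2.40. Msx1, Meioc and Stra8 were the 3 most reduced, at 41.7%, 49.6% and 51.7% of the WT level, whereas Msx2, Zglp1 and Ythdc2 stood at 80.6%, 88.5% and 92.3%. There was 1 library per genotype, so these differences have no replicate check and no test was made across genes. Tet2 itself was not lower by a comparable amount, with 3.19 FPKM (fragments scaled to transcript length and library size) in WT and 2.96 FPKM in the other library. Reads outside a deleted part still count for the gene, so this value neither bears out nor contradicts the label, and the sample is called the library labelled Tet2KO throughout.

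Stra8, the gatekeeper of meiotic prophase, was the most abundant of the 6 transcripts. It measured 138.3 FPKM in the WT library and 71.6 FPKM in the library labelled Tet2KO. In WT it exceeded 95.9% of the 12577 genes that reached 1 FPKM in at least 1 of the 2 libraries. The log2 ratio of FPKM + 0.1, library labelled Tet2KO to WT, was -0.95. Its 95% interval ran from -1.03 to -0.87, derived from about 3673 and 1886 fragments by an exact binomial method, and it covers counting error only. Only 5.07% of the genes had a lower ratio.

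Meioc, which holds germ cells in the meiotic programme together with YTHDC2, measured 16.6 FPKM in WT and 8.22 FPKM in the library labelled Tet2KO, a log2 ratio of -1.002 with a counting interval of -1.14 to -0.88. Ythdc2, its helicase partner, measured 8.07 FPKM in WT and 7.45 FPKM in the other library, a log2 ratio of -0.11. The counting interval for Ythdc2, -0.25 to 0.02, included 0, and 43.5% of genes had a lower ratio. The partners of this complex therefore had counting intervals that did not overlap: Meioc was lower by a factor of 2.02 and Ythdc2 by a factor of 1.08. In WT the Meioc level per length was above that of Ythdc2, and in the library labelled Tet2KO the counting intervals of their levels overlapped, at 7.61 to 8.86 FPKM for Meioc and 6.96 to 7.97 FPKM for Ythdc2.

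Of the transcription factors downstream of BMP, Msx1 measured 50.7 FPKM in WT and 21.1 FPKM in the library labelled Tet2KO, a log2 ratio of -1.26 with a counting interval of -1.39 to -1.14. It was the largest reduction among the 6, and 2.28% of genes had a lower ratio. Its paralog Msx2 measured 37.28 and 30.04 FPKM, a log2 ratio of -0.31 with an interval of -0.42 to -0.20. The counting intervals of the Msx1 and Msx2 ratios did not overlap. Zglp1, a zinc finger protein of the GATA-like type, measured 37.1 FPKM in WT and 32.8 FPKM in the other library, with a log2 ratio of -0.18 and an interval of -0.34 to -0.02. Msx1 ranked above Msx2 and Zglp1 in WT and below both in the library labelled Tet2KO, while the WT counting intervals of Msx2 and Zglp1 overlapped.

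**Figure D1:**
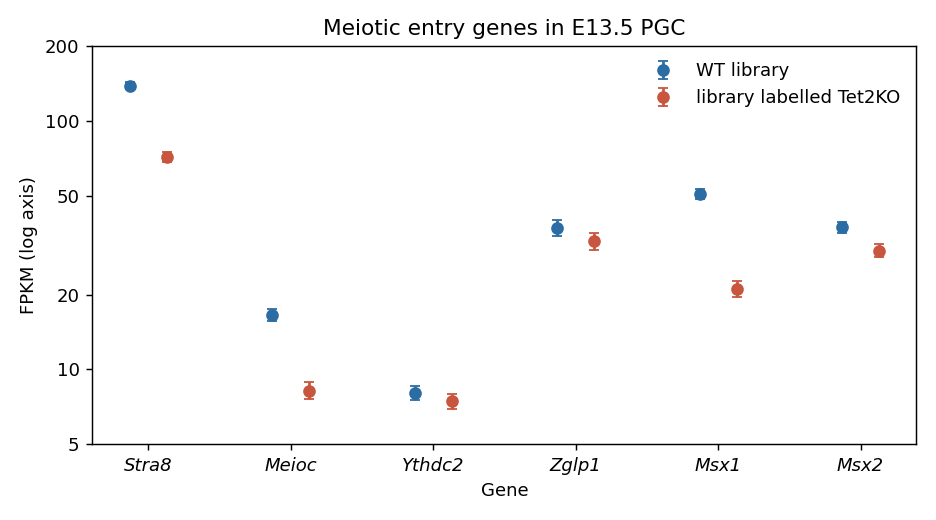
FPKM of the 6 genes, on a log axis, in the WT library (blue) and the library labelled Tet2KO (red) of E13.5 PGC, 1 library each, with error bars showing 95% exact Poisson counting intervals. Stra8, Meioc and Msx1 show the wide gaps between libraries, with Stra8 at 138.3 and 71.6 FPKM, and Ythdc2 the narrowest, at 8.07 and 7.45 FPKM.

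A change of 2-fold or more toward lower values was reached by 2 of the 6 genes, Meioc and Msx1, against 4.41% of the 12577 genes (555 genes). None was 2-fold or more higher, against 1.02% of genes (128 genes). Meioc lay at the boundary, at 2.02-fold, and Stra8 just outside it, at 1.93-fold, so the count does not separate them. With a pseudocount of 1 in place of 0.1, Meioc fell outside and the count was 1. The median log2 ratio of the 6 genes was -0.63, and that of all 12577 genes was -0.07. The authors' deposited table gave the log2 ratios of Meioc and Msx1 as -1.01 and -1.26 and that of Stra8 as -0.95. That table compares reads of these 2 libraries, not replicated genotypes.

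The start regions of the 3 genes with the lowest ratios are printed to show how differently they are built. Each window is 300 bases of RefSeq sequence, build GRCm38.p6, from 250 bases before the start site to 50 from it, 5′ to 3′ on the gene's strand, with each CpG in capitals. Stra8 is at chr6:34920698-34920997 (plus strand), Meioc at chr11:102665335-102665634 (plus strand) and Msx1 at chr5:37824536-37824835 (minus strand).
Stra8: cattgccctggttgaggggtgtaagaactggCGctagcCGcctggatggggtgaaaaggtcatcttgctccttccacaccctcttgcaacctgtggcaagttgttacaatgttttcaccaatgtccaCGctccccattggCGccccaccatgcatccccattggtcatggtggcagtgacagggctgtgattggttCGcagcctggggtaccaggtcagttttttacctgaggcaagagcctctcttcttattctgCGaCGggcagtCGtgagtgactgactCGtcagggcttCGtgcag
Meioc: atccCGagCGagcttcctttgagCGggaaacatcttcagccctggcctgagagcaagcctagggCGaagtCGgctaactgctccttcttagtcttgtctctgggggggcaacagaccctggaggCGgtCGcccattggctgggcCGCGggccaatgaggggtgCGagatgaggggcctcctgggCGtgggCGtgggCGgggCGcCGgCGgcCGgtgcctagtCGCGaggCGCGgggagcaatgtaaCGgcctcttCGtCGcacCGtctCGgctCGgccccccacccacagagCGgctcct
Msx1: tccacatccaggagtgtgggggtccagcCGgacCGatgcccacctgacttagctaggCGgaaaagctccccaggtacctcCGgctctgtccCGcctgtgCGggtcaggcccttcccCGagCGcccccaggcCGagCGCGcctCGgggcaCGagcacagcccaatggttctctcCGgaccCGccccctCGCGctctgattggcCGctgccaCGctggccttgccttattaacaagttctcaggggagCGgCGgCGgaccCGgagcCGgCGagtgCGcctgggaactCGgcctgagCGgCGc

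Stra8 carried 10 CpG in this window, Meioc 28 and Msx1 29. The 2 other windows examined held 17 CpG (Zglp1) and 22 CpG (Msx2), and the median of 32851 mouse windows was 7. The Stra8 window thus held more CpG than 56.5% of all windows and the Msx1 window more than 87.1%. The 3 genes that were lower by about 2-fold therefore included both the lowest and the highest CpG count of the 5. The sequence AGGTCA, a hexamer bound by retinoic acid receptors, was found in Stra8 at 194 and at 38 bases before the start, and in Zglp1 on the opposite strand at 121 bases before it. A further such hexamer, GGGTCA, was found in Msx1 at 150 bases before the start. The related hexamers AGTTCA and GGTTCA were in none of the 5 windows. Searched on both strands, AGGTCA was present in 16.3% of all windows and any of the 4 hexamers in 43.7%. The motif TCCCGC, read by E2F6-type repressors, was present in Meioc at 228 bases before the start on the opposite strand and in Msx1 at 162 bases before it, and in 6562 of the 32851 windows. The palindrome CACGTG was present in Zglp1 at 125 bases before the start, sharing bases with the AGGTCA match there, and in 7.2% of all windows. These matches describe letters in a window, and methylation and protein binding were not measured here.

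**Figure D2:**
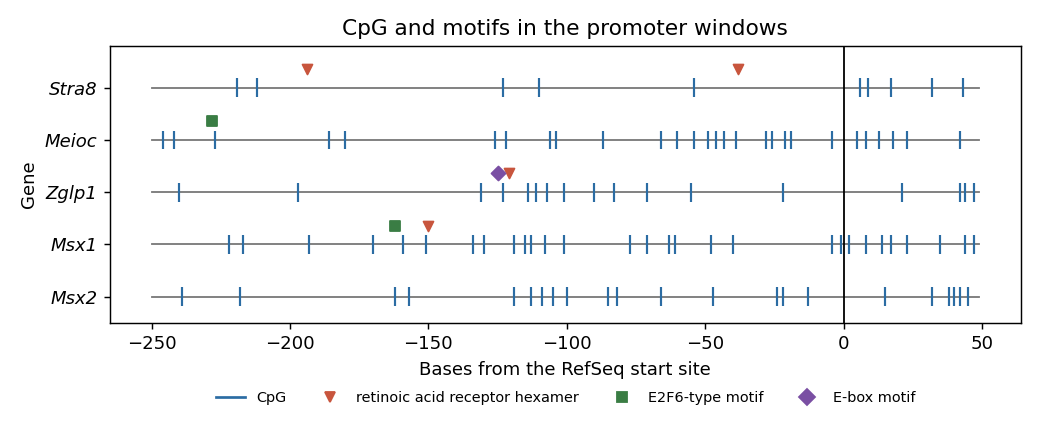
Positions of CpG (vertical ticks) and of 3 kinds of motif (symbols) in the RefSeq start windows of 5 of the genes, as bases from the start site, which is the vertical line at 0. Stra8 has the sparsest row, with 10 CpG and 2 hexamers, and Msx1 the densest, with 29 CpG.

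Of the signalling genes upstream of the 6, 1 in each list was past 2-fold. Over all 12577 genes, 4.41% were 2-fold or more lower, 1.02% were 2-fold or more higher and 7448 genes had a ratio below 0. A count of 1 gene does not set either list apart from these shares. In the BMP and SMAD list, 1 of 18 genes at or above 1 FPKM was 2-fold or more lower and none was 2-fold or more higher, 15 had a ratio below 0 and 3 above it, with a median log2 ratio of -0.32. That gene was Bmp2, a BMP ligand, at 5.44 FPKM in WT and 2.49 FPKM in the library labelled Tet2KO. In the retinoic acid list, 1 of 13 genes was 2-fold or more lower and none was 2-fold or more higher, 10 had a ratio below 0 and 3 above it, with a median of -0.33. That gene was Aldh1a1, a retinaldehyde dehydrogenase, at 12.5 and 3.63 FPKM, a larger reduction than that of any of the 6 genes.

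The meiotic prophase genes, many of them targets of STRA8 and MEIOSIN, were mostly lower. Of 45 genes at or above 1 FPKM, 8 were 2-fold or more lower, none was 2-fold or more higher, 38 had a ratio below 0 and 7 above it, with a median log2 ratio of -0.43. Over all 12577 genes, 7448 had a ratio below 0. The lowest ratio was that of Rad21l, a meiotic cohesin subunit, at 1.14 FPKM in WT and 0.29 FPKM in the other library. Spata22, which acts in meiotic recombination, measured 1.24 and 0.33 FPKM. Kash5, which links telomeres to the cytoskeleton, measured 3.58 and 1.35 FPKM. Majin, which anchors telomeres to the nuclear envelope, measured 4.13 and 1.57 FPKM. These are low levels, and with a pseudocount of 1 the log2 ratio of Rad21l was -0.73 rather than -1.67.

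The lists of repressors of meiotic genes, of cell cycle genes and of PGC markers had medians on the other side of 0. Over all 12577 genes, 5105 had a ratio above 0. None of 16 repressors of meiotic genes was past 2-fold and 10 had a ratio above 0, with a median of 0.11. None of 16 mitotic cyclins and cell cycle genes was past 2-fold and 12 had a ratio above 0, with a median of 0.13. Of the 4 below 0, Ccnd1 and Ccnd2 stood at 52.4% and 56.2% of their WT level, beside 51.7% for Stra8. None of 12 PGC markers was past 2-fold and 10 had a ratio above 0, with a median of 0.12. The 2 below 0 were Ddx4 (128.4 and 93.7 FPKM) and Tdrd7 (25.8 and 19.2 FPKM). None of 12 writers, erasers and readers of N6-methyladenosine, the RNA mark bound by YTHDC2, was past 2-fold (median 0.04). Of the direct partners, Rbm46, the RNA-binding subunit of the MEIOC complex, measured 11.7 FPKM in WT and 9.56 FPKM in the library labelled Tet2KO. Dazl, a germ-cell RNA-binding protein required before meiotic entry, measured 359.3 and 367.1 FPKM. Meiosin was not analysed here in PGC.

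Many markers of other cells moved in the same direction as Msx1, Meioc and Stra8, though not those of every cell type. Of 13 fetal gonad somatic markers at or above 1 FPKM, 8 were 2-fold or more lower and none was 2-fold or more higher, with a median log2 ratio of -1.19. The summed level of the list of 20 was 132.6 FPKM in WT and 55.5 FPKM in the library labelled Tet2KO. The lowest ratios belonged to Foxl2 (5.98 and 1.52 FPKM), Nr5a1 (27.5% of its WT level), Gata4 (18.5 and 6.38 FPKM) and Fst (8.41 and 2.89 FPKM), all expressed in ovarian somatic cells. Of 10 blood, endothelial and macrophage markers, 5 were 2-fold or more lower, with a median of -0.76. They were the red blood cell genes Hba-a1, Hba-a2 and Alas2 and the endothelial genes Cdh5 and Kdr. The macrophage genes Csf1r (1.28 and 1.25 FPKM), Cd68 (2.37 and 2.15 FPKM) and C1qa (1.62 and 1.58 FPKM) differed little. C1qb stood at 76.5% of its WT level, and Pecam1 was higher, at 68.19 and 85.66 FPKM. The summed level of the list of 18 was 1782 FPKM in WT and 605.7 FPKM in the other library, most of it from Hba-a1 (1192 and 382.4 FPKM) and Hba-a2 (498.4 and 124.3 FPKM). Of testis somatic markers, the Sertoli cell genes Sox9 (0.76 and 0.55 FPKM) and Amh (0.16 and 0.06 FPKM) were below 1 FPKM in both libraries. The Leydig cell gene Insl3 measured 2.62 and 1.4 FPKM, and the steroidogenic gene Star 1.48 and 1.6 FPKM. Fewer cells of a type and less RNA per cell cannot be told apart in bulk libraries. The part of these other cells in the ratios of the 6 genes was not tested.

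**Figure D3:**
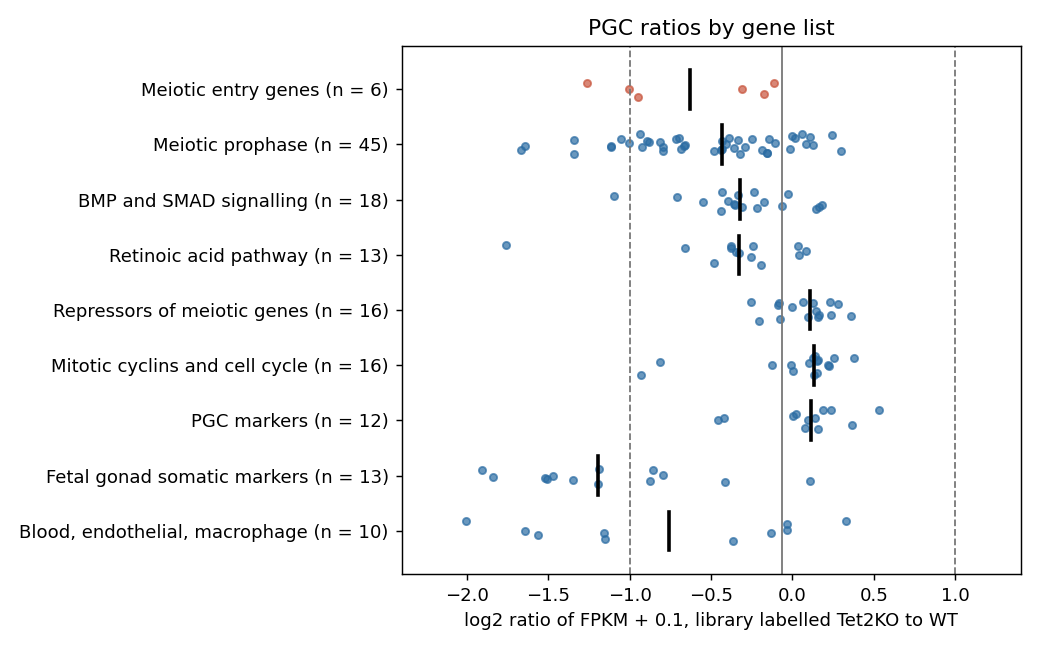
Log2 ratio of FPKM + 0.1, library labelled Tet2KO to WT, for each gene at or above 1 FPKM in 9 lists (points), with list medians as black bars, the median of all genes (-0.07) as a solid line and 2-fold changes as dashed lines. The 6 meiotic entry genes (red) run from -1.26 to -0.11. Their median (-0.63) lies between those of the meiotic prophase list (-0.43) and the blood, endothelial and macrophage list (-0.76). The fetal gonad somatic markers centre lower, at -1.19, and the PGC markers at 0.12.

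The sex of the PGC donors bears on meiotic entry, which in the fetus is a female event. The Y-linked Ddx3y measured 0.02 FPKM in WT and 0.01 FPKM in the library labelled Tet2KO, and Xist, transcribed from an inactive X chromosome, measured 2.56 and 1.70 FPKM. Of the 8 male germ cell markers, 6 reached 1 FPKM, of which 5 had a ratio above 0 and 1 below it, with a median log2 ratio of 0.55. By the ratio of FPKM + 0.1 none was 2-fold or more higher. Lefty2 lay just inside at a log2 ratio of 0.97, and the authors' deposited log2 ratio for it was 1.07. Tdrd1, a piRNA pathway gene, was 2-fold or more lower, at 8.06 FPKM in WT and 3.63 FPKM in the library labelled Tet2KO. The highest ratios were those of Lefty2 (0.73 and 1.53 FPKM), Tdgf1 (0.86 and 1.54 FPKM) and Nodal (2.09 and 3.47 FPKM), members of the Nodal pathway. Below the 1 FPKM minimum were Nanos2 (0.07 and 0.01 FPKM) and Dnmt3l (0.05 and 0.13 FPKM).

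In ovulated oocytes, arrested long after meiotic entry, the 6 genes diverged. Stra8 was not detected, and Ythdc2 was present in every oocyte at a level that was steady between sets. Meioc varied strongly between sets, and Zglp1, Msx1 and Msx2 were at the edge of detection. Oocyte depth was 2354503 to 12472307 assigned counts per oocyte (median 3985321), and levels are given as CPM, counts scaled to the library total. The oocyte identity of the libraries was checked with all 12 oocyte markers, which had counts in each of the 13 sets and summed to between 10700 and 23000 CPM. The 15 cumulus and granulosa markers summed to between 25.1 and 61.1 CPM per set and the 18 blood, endothelial and macrophage markers to between 91.7 and 366 CPM. Both highest sums belonged to S161, the only old Tet2KO set, and the next highest blood, endothelial and macrophage sum was 166 CPM. The part of these markers in the old Tet2KO values of Ythdc2 and Meioc given below was not tested. Tet1 was near 0 in the Tet1KO sets, at 0 to 0.03 CPM in young ones against 1.80 to 4.61 CPM in young WT, whereas Tet2 was 1.18 to 1.30 CPM in young Tet2KO sets and 1.53 to 3.20 CPM in young WT sets.

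Stra8 had 0 counts in all 94 oocytes, a total of 422218726 assigned counts, which allows a level of up to 0.00711 CPM at 3 counts. At this depth Stra8 was not detectable in any of the 6 groups, so no comparison between genotypes or ages could be made.

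Ythdc2 had counts in 94 of 94 oocytes and was the highest of the 6 per transcript length, at 1.93 ± 0.28 CPM per kilobase (SD over 13 sets). Over sets it ranged from 13.2 to 20.6 CPM, a factor of 1.56. Single oocytes spread more widely, from 8.72 to 38.8 CPM. The 4 young WT sets measured 13.4, 18.5, 19.5 and 19.8 CPM. The 2 young Tet1KO sets measured 15.2 and 17.6 CPM, the 2 young Tet2KO sets 14.7 and 19.5 CPM, and the 2 old WT sets 17.5 and 17.9 CPM. The 2 old Tet1KO sets measured 13.2 and 15.4 CPM and the 1 old Tet2KO set 20.6 CPM. Young Tet1KO and young Tet2KO sets lay inside the young WT range, old Tet1KO sets lay below both old WT sets, and the old Tet2KO set lay above them. In edgeR's quasi-likelihood test with Benjamini-Hochberg adjustment, the log2 change in the 5 comparisons was between -0.22 (SE 0.29, adjusted p = 0.788) for old against young WT and 0.21 (SE 0.35, adjusted p = 1.0) for old Tet2KO against old WT. The 2 old WT and 2 old Tet1KO sets did not overlap, yet 2 against 2 sets cannot give an exact two-sided permutation p below 0.333.

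Meioc had counts in 70 of 94 oocytes, and its sets spanned a factor of 37.02, from 0.32 to 11.8 CPM. The young WT sets measured 0.51 (T148), 0.66 (T211), 0.76 (T231) and 2.57 CPM (Young_WT__246), a mean of 1.13 ± 0.97 CPM (SD, n = 4). Both young Tet1KO sets were higher, at 4.74 (T146) and 3.91 CPM (Young_Tet1-/-_201), a mean of 4.32 ± 0.58 CPM (SD, n = 2). The young Tet2KO sets, at 0.65 and 0.62 CPM, lay within the young WT range. Single oocytes overlapped: the young Tet1KO oocytes ran from 1.22 to 9.43 CPM with a median of 4.89 CPM and a count in all 15, and the young WT oocytes from 0 to 8.27 CPM with a median of 0.87 CPM and a count in 30 of 38.

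The log2 change of Meioc in young Tet1KO against young WT was 2.06 (SE 0.82) in edgeR's quasi-likelihood test, with an unadjusted p of 0.0284 and an adjusted p of 0.967. It was thus not called, and an exact two-sided permutation test over the 6 sets gave p = 0.133, the smallest that 4 against 2 sets allow. Within the T series, T146 was above the 3 WT sets, and within the numbered series the gap was 3.91 against 2.57 CPM. Without T146 the log2 change was 0.64. When genes with low counts were not filtered out, Meioc was called at the same log2 change of 2.07 (adjusted p = 0.000926), in a fit that called 0.752% of 33500 genes.

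In old mice the Meioc sets of Tet1KO and WT overlapped, and the old Tet2KO set lay below them all. The old WT sets measured 0.41 (Old_WT_247) and 4.61 CPM (Old_WT_365), the old Tet1KO sets 2.56 (Old_Tet1-/-_209) and 11.8 CPM (Old_Tet1-/-_315), and the 1 old Tet2KO set 0.32 CPM. The set of 11.8 CPM was a single oocyte with 97 Meioc counts. In edgeR's quasi-likelihood test the log2 change in old Tet1KO against old WT was 1.72 (SE 1.004, adjusted p = 0.501), and without that single oocyte it was 0.14. For old against young WT it was 0.43 (SE 1.002, adjusted p = 0.889), and without Old_WT_365 it was -2.19. For old Tet2KO against old WT it was -2.96 (SE 1.6, adjusted p = 1.0), and without Old_WT_365 it was -0.36. In that comparison the genotype and the naming series cannot be told apart. The difference of the Tet1KO effect between old and young mice, tested as an interaction, was -0.35 on the log2 scale (adjusted p = 0.973 in edgeR).

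**Figure D4:**
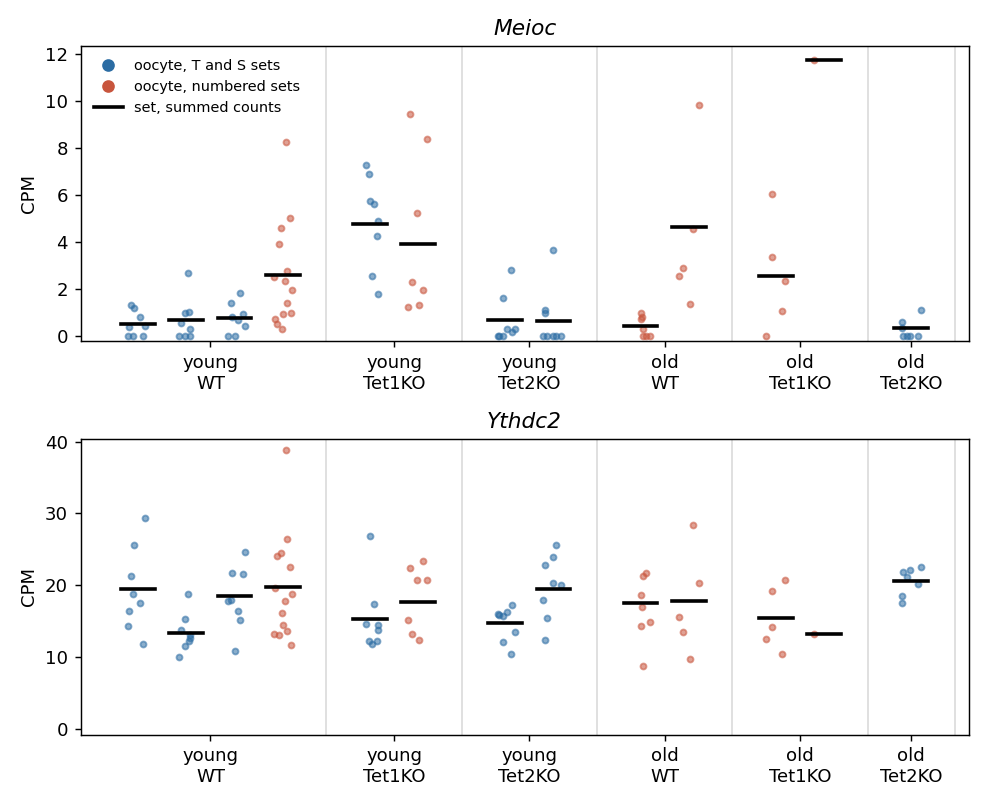
CPM of Meioc and Ythdc2 in each oocyte (points, coloured by naming series) and in each set from summed counts (black bars), by group. The 2 young Tet1KO bars for Meioc, at 4.74 and 3.91 CPM, stand above the 4 young WT bars, while all 13 Ythdc2 bars lie between 13.2 and 20.6 CPM.

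No gene of the 6 was called at an adjusted p under 0.05 in any of the 5 oocyte comparisons, where edgeR called few genes at all. The share called among 14418 genes tested was 0.0208% in young Tet1KO against young WT, 0.0139% in young Tet2KO against young WT, 0.0347% in old Tet1KO against old WT, 0.0416% in old against young WT and 0.0139% in old Tet2KO against old WT. Of the 6 genes, Meioc and Ythdc2 passed the filter of 1 CPM in at least 2 sets and were tested. At an unadjusted p under 0.05 the count was 1 of these 2 in young Tet1KO and 0 in each of the other 4 comparisons, against 691, 835, 1794, 1873 and 267 of the 14418 genes in the same order. DESeq2 and limma on the same filtered genes also called 0 of the 2 in each comparison.

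Zglp1 had 168 counts over all oocytes and was seen in 57 of 94, with sets from 0.05 to 0.82 CPM. In the annotation used for counting, its genomic span overlaps that of Gm49373, a longer model on the same strand, over 4694 bases, introns included. The counted length of Zglp1 is 1088 bases, and the part of it shared with Gm49373 was not computed. Reads in a shared part were counted for both, so the Zglp1 level is uncertain. Group means were 0.43 CPM (young WT), 0.37 CPM (young Tet1KO), 0.42 CPM (young Tet2KO), 0.52 CPM (old WT) and 0.30 CPM (old Tet1KO), and the sets of these groups overlapped in the 4 comparisons that have at least 2 sets a group. The old Tet2KO set held 1 count.

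Msx1 had 132 counts and was seen in 58 oocytes, and Msx2 had 222 counts and was seen in 62. Msx1 sets ranged from 0.11 to 1.09 CPM. Young WT sets of Msx1 measured 0.23, 0.26, 0.35 and 0.44 CPM and both young Tet2KO sets were lower, at 0.11 and 0.16 CPM. They did not overlap, and the exact two-sided permutation p over 4 and 2 sets was 0.133, the smallest possible. These Tet2KO values rest on 4 and 5 counts, close to the floor of 3 counts. The young WT values rest on 6 counts each in T148 and T231, 10 in T211 and 33 in Young_WT__246. Msx2 sets ranged from 0.16 to 0.97 CPM, with old Tet1KO at 0.95 and 0.97 CPM and old WT at 0.47 and 0.60 CPM. These sets did not overlap, and the exact two-sided permutation p was 0.333, again the smallest possible. In these old Tet1KO sets, 1 oocyte at 3.94 CPM gave 17 of the 20 Msx2 counts of Old_Tet1-/-_209. Per kilobase, Msx2 (0.17 ± 0.07 CPM), Msx1 (0.11 ± 0.08 CPM) and Zglp1 (0.35 ± 0.21 CPM; SD over 13 sets each) had ranges that overlapped, and Ythdc2 had a lowest set, at 1.49 CPM per kilobase, above the highest set of each of these 3. Meioc, at 0.07 to 2.55 CPM per kilobase, overlapped all 4. In the WT PGC library the order was different, with Stra8 first and Ythdc2 last.

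**Figure D5:**
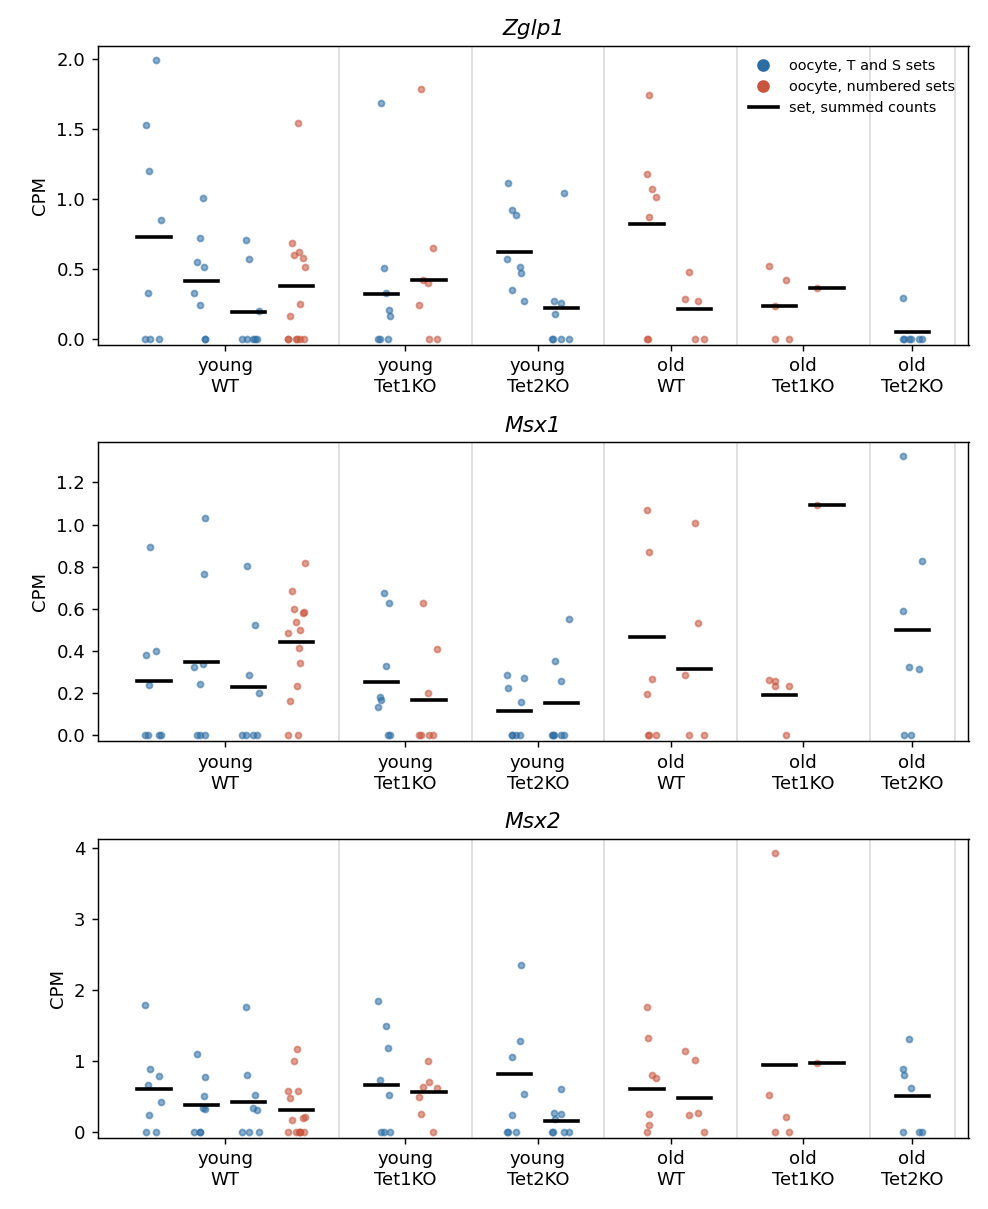
CPM of Zglp1, Msx1 and Msx2 in each oocyte (points, coloured by naming series) and in each set from summed counts (black bars), by group. Every set of the 3 genes lies below 1 CPM except the single-oocyte old Tet1KO set of Msx1, at 1.09 CPM, and many oocytes lie at 0.

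Of the partners of the 6 genes, Meiosin, Dazl and Xrn1 passed the oocyte filter and edgeR called none of them in the 5 comparisons. An unadjusted p under 0.05 was reached by 1, 0, 2, 1 and 0 of the 3 in the order given above, where 1794 and 1873 of 14418 genes reached it in the old Tet1KO and the age comparison. In these comparisons limma called none, and DESeq2 called Dazl in old Tet1KO against old WT, where it called 300 of 14418 genes. Meiosin, the STRA8 partner, ranged from 0.08 to 3.13 CPM over sets, and Rbm46, which was not tested, from 0 to 1.86 CPM. Dazl ranged from 504.7 to 2154 CPM. Its mean was 909.2 CPM in young Tet1KO against 1470 CPM in young WT, a log2 change of -0.56 (SE 0.24, edgeR adjusted p = 0.967). In old mice it was 779.9 CPM in Tet1KO against 2090 CPM in WT, a log2 change of -1.28 (SE 0.26, edgeR adjusted p = 0.15). The old Tet1KO set at 504.7 CPM was a single oocyte. When genes with low counts were not filtered out, edgeR called Dazl there at a log2 change of -1.31 (adjusted p = 2.03e-05). That fit called 564 of 33500 genes.

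Of 37 meiotic prophase genes tested, edgeR called 1 in 1 comparison and limma made the same single call. This was Tex15, a germ-line gene active in meiotic recombination and transposon silencing, at 58.05 to 75.5 CPM in the old WT sets and 0.65 to 48.6 CPM in the young WT sets. The log2 change was 5.92 (edgeR adjusted p = 0.0224), and without the naming series term it was 1.35 (adjusted p = 1.0). Both old WT sets were in the numbered series, and of the young WT sets only Young_WT__246 was. The change with the term therefore depends on the series difference estimated from young sets. DESeq2 also called Tex15 in that comparison, and its calls in old Tet1KO against old WT included Hormad1 and Sycp3. None of 14 BMP and SMAD genes and none of 10 retinoic acid genes tested was called in any of the 5 comparisons by edgeR or limma, and DESeq2 called Bmp5 in both the old Tet1KO and the age comparison. At an unadjusted p under 0.05 in edgeR, between 0 and 4 of the BMP and SMAD genes and between 0 and 3 of the retinoic acid genes passed. The highest counts, 4 of 14 and 3 of 10, came from old Tet1KO against old WT, where 1794 of 14418 genes passed.

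The transcripts whose set levels most resembled those of the 2 tested genes were listed by Pearson's r of log2 CPM over the 13 sets, which differ in naming series and depth. For Meioc they were 4932443L11Rik (r = 0.92), Tubg1 (r = 0.916) and Rsu1 (r = 0.912). For Ythdc2 they were Cd2ap (r = 0.874), Dclre1c (r = 0.874) and Gm5454 (r = 0.867). These are the highest of 14417 coefficients each and are given as a description.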

How the data were processed

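Both kinds of file were processed by the authors. The oocyte tables hold raw counts per gene, made with featureCounts 1.6.2 on the GENCODE mouse release 17 annotation per the file headers, counting read pairs at a mapping quality of at least 30, with reads shared by overlapping genes and multi-mapping reads counted for each, without strand. Alignment tools and build named by the submitters' processing notes were HISAT2, SAMtools and mm10. The PGC table deposited by the authors gives FPKM, a log2 ratio, a p-value and an FDR that is a score here, because 772 values exceed 1. The counting behind the FPKM is not given in the sources used here. Low FPKM values of short genes lie near whole multiples of 1 fragment (64.7% of 484 in WT within 0.15 of a whole number), from which 18200000 and 18100000 fragments were estimated and used for the counting intervals, with no count test. The 6 genes and the gene lists were chosen with earlier results of these data known.

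Oocyte counts were summed per set, filtered at 1 CPM in at least 2 sets and tested with edgeR 4.0.16 (TMM, quasi-likelihood, naming series as a term except for old Tet2KO against old WT), adjusted over 14418 genes, with R 4.3.3, DESeq2 1.42.0 and limma 3.58.1 as alternatives; the fits were tested on simulated data. The exact permutation tests used set CPM. PGC ratios are log2 of FPKM + 0.1 among genes of at least 1 FPKM in 1 library. Named list genes were the up to 4 of a list furthest past 2-fold in PGC and those called in oocytes, with the direct partners. 39 count columns matched no sample alone and were not used, and no 2 oocyte columns were identical. Promoter windows come from RefSeq, GRCm38.p6; 5 of the 6 genes are shown. The RefSeq starts of Stra8, Meioc and Msx2 lie inside the gene models counted. Some DESeq2 calls among the list genes are not reported here.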

Additional observations from a re-analysis of the deposited data

Results flagged for a closer look

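Values that stood apart from their group by Dixon's test at the 95% level were found in 4 of 15 groups of 4 to 10 samples. The flag for Meioc compares sets, and the others compare single oocytes. The test's rate of 1 in 20 assumes independent, normally distributed values. Oocytes of a set are not independent and many hold 0 counts, so the number of flags cannot be set against that rate. The young WT set Young_WT__246 held Meioc at 2.57 CPM, and the next set held 0.76 CPM. A single old Tet2KO oocyte held Zglp1 at 0.295 CPM, which is 1 count, with the other 6 at 0. In old Tet1KO oocytes, 1 of 6 held Msx1 at 1.09 CPM, the next being 0.26 CPM, and 1 held Msx2 at 3.94 CPM, the next being 0.97 CPM.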

How the results depend on the processing

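The count of members called was 0 in all 5 oocyte comparisons with DESeq2's size factors, DESeq2, limma and sets left out in turn (0 to 0), and in the 4 comparisons fitted with no naming series term. Old Tet2KO against old WT has no series term in any fit and no value without S161, its only Tet2KO set. The count was 1 in young Tet1KO against young WT with no filter on low counts. The PGC count past 2-fold was 1 with a pseudocount of 1 and 2 with the other alternatives. Directions turned for Meioc in old against young WT, at 0.43 in the main fit, and for Ythdc2 in young Tet2KO against young WT, at -0.03. The Meioc change was unstable and depended on single sets. Meioc in old against young WT was -0.0048 with limma, -2.19 without Old_WT_365, -0.12 without T146 and -0.14 without Young_Tet1-/-_201, within a range of -2.19 to 2.16 over sets left out. Ythdc2 in young Tet2KO against young WT was 0.0006 with limma, 0.06 without T148, 0.16 without T213 and 0.01 without T231, within -0.26 to 0.16. The cause was not tested. Meioc in young Tet1KO against young WT ranged from 0.64 to 2.92 over sets left out, and in old Tet2KO against old WT from -3.89 to -0.36. The number of genes called differed between tools: edgeR called 3, 2, 5, 6 and 2 genes in the comparisons as ordered in the report, DESeq2 30, 16, 300, 327 and 11, limma 0, 0, 5, 10 and 0, and edgeR with no filter 252, 226, 564, 669 and 243. DESeq2's size factors in edgeR gave 9 in old Tet1KO, and leaving out the naming series term gave 0 in old against young WT. Leaving out sets gave 2 to 8, 2 to 3, 0 to 16, 0 to 41 and 0 to 3. No paired analysis was possible because the labels give no replicate numbers that link sets across groups. Depth limits Zglp1, Msx1 and Msx2, which hold 132 to 222 counts over all oocytes.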
